A study of Mus musculus with 24 samples.

Results

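The subject is Btg2, a gene that restrains cell proliferation, and the contacts that Argonaute 2 (AGO2) made with its 3' untranslated region (3' UTR) in activated mouse T cells. All rows of the authors' deposited peak table with the gene symbol Btg2 were taken, which gave 23 of 14634 AGO2 peaks. The gene was chosen by its AGO2 reads, summed over both genotypes in this same table, so its read totals are described without a test. AGO2 HITS-CLIP crosslinks AGO2, the protein that carries microRNAs, to the messenger RNAs it touches, and sequences the bound RNA. CD4+ T cells of C57BL/6 mice, isolated from spleen and lymph nodes, were cultured for 4 days with IL-2 (20 U/mL) and activating anti-CD3 and anti-CD28 (each at 1 µg/mL). The 12 wild-type libraries are set against 12 libraries of miR-155 knockout cells, which lack a microRNA induced by lymphocyte activation, and in each genotype 6 libraries carried 3' linker 1 and 6 carried 3' linker 2. The labels do not say whether the knockout covers other cells than T cells.

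BTG2 belongs to the BTG/TOB family of small proteins that bind the CCR4-NOT deadenylase and so promote shortening of poly(A) tails. The gene is an immediate early gene and a direct target of p53, and with its relative Btg1 it is known to help keep resting T cells quiescent. A microRNA guides AGO2 mainly by its seed, bases 2 to 8, which pairs with a complementary site that is most often in a 3' UTR. In the site classes used here an 8mer pairs with bases 2 to 8 and has an A opposite base 1, a 7mer-m8 lacks that A, and a 7mer-A1 pairs with bases 2 to 7 and has the A.

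Btg2 lies on chromosome 1 of GRCm38, 134075170 to 134079120, on the minus strand. All 23 peak sequences matched its transcript exactly and lay in its exon 2 of 2. Its annotated 3' UTR, chr1:134075170-134077368, is 2199 nt long, and all 23 peaks lay inside it. Positions below take the start of the 3' UTR as nucleotide 1. The authors' positions differed by 0 nt from those of the GENCODE annotation for every Btg2 peak. The peaks covered 1015 nt, or 46.2% of the 3' UTR, from nucleotide 11 to nucleotide 2045.

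The microRNAs whose sites lie under the most-read Btg2 peaks are shown first, with the seed in capitals, so that the pairing can be read directly. The mature sequences are those of RefSeq for GRCm38.p6. 
miR-17-5p: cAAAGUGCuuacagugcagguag
miR-92a-3p: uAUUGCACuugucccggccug
miR-25-3p: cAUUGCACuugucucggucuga
miR-16-5p: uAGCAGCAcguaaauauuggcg
miR-21a-5p: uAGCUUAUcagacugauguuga
miR-24-3p: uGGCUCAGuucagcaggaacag

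miR-92a-3p and miR-25-3p share a seed, as do 6 mature microRNAs of that table in all. The miR-17 seed is shared by 7, including miR-20a, miR-93 and miR-106b, and the miR-15/16 seed by 10. A seed match therefore names a family and not the member that was bound. miR-17 and miR-92a are made from the same primary transcript, the miR-17-92 cluster, which is known for promoting lymphocyte proliferation.

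The Btg2 sites that pair with these seeds are printed from the deposited peak sequences, as DNA letters, 5' to 3' on the transcript. Capitals mark the match, including the A opposite base 1 where it is present.
Peak 20, miR-17 7mer-A1, chr1:134075538-134075565: attctttactgtccttgttCACTTTAga
Peak 15, miR-25/92 8mer, chr1:134076020-134076047: aaatttatttgtagatgtGTGCAATAtt
Peak 21, miR-21 7mer-A1, chr1:134075450-134075477: agaaatagtggtaagtttgTAAGCTAtt
Peak 3, miR-24 7mer-A1, chr1:134077097-134077124: ctgttcttgattgcatctgTGAGCCAgt
Peak 9, miR-15/16 7mer-m8, chr1:134076621-134076648: aacctttgctttgctctgTGCTGCTttg
Peak 11, miR-15/16 8mer, chr1:134076487-134076512: cacacgacagtctgaaTGCTGCTAcc

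Reads are the authors' pooled and scaled reads, recovered from their log2 values by taking off a pseudocount of 1. The table has 1 value per genotype and peak and no value per library, so there is no replicate error, the depth of single libraries is unknown, and no interval is given. Over all peaks there were 371088 scaled wild-type and 374126 knockout reads. The table pools both linkers, so values within a linker were not analysed here. Of 8 T cell marker genes looked up, 5 had peaks (Cd4, Cd3e, Cd3d, Cd3g and Cd28), and Cd5, Cd2 and Lck had none. Over both genotypes Cd28 held 3750 scaled reads, Cd4 139 and Cd3e 111, but Cd3g only 5.43 and Cd3d only 0.634. The 11 markers looked up for CD8 T cells, B cells, myeloid cells, NK cells and erythroid cells had no peaks. A gene without a 3' UTR peak may still be expressed. As a check of the labels, 59 of the 84 peaks called lower in the knockout held a miR-155 site of 7 or 8 nt. Such a site was present in 1.81% of all peaks of the table.

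Btg2 held 5739 scaled wild-type and 7094 knockout reads, 1.72% of all reads in the table. It ranked 2 of 4165 genes by reads and 33 by its number of peaks. Per nucleotide of peak it held 5.65 wild-type and 6.99 knockout reads, and by this measure it ranked 17. The table holds no measure of Btg2 mRNA, so the amount of mRNA and the AGO2 bound per mRNA cannot be told apart, nor can the number of cells that express the gene and the RNA per cell.

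The reads were concentrated in a few places. The 8 most-read peaks held 90.3% of them, and the 2 most-read peaks, 20 and 15, held 47.5%. Even so, the most-read peak took a smaller share of the gene than is usual: 27.5% in Btg2 against a median of 45.0% over the 117 genes with at least 1000 scaled reads, 94 of which had a larger share. Of the 23 peaks, 13 held at least 100 scaled reads in both genotypes together and are described singly. The least-read of these was peak 5 with 134 reads, and the most-read of the other 10 was peak 12 with 71.4.

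**Figure D1:**
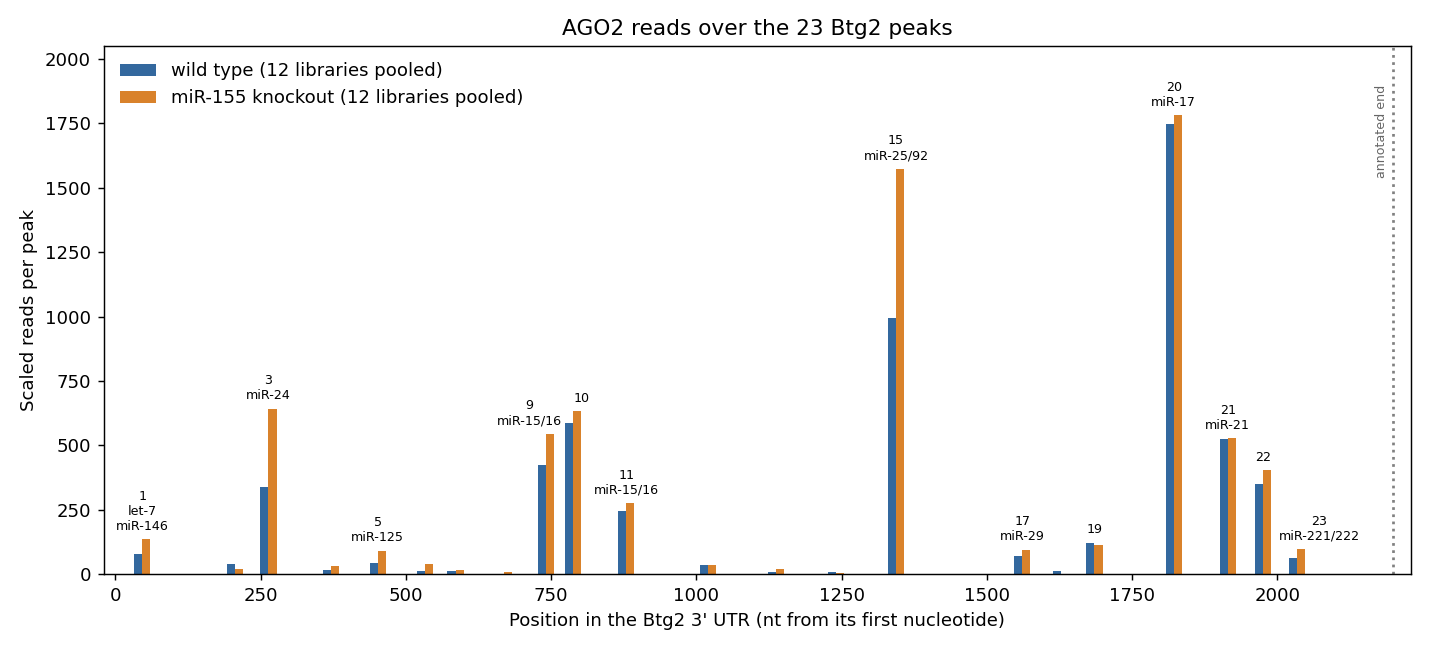
Scaled AGO2 reads (vertical axis) of each Btg2 peak against its position in the 3' UTR in nt (horizontal axis), wild type in blue and knockout in orange, each bar 1 pooled value without error. Numbers name the peaks with at least 100 reads and the families with a site of 7 or 8 nt under them; peaks 15 and 20 reach 993 reads or more in both genotypes, and no other peak exceeds 642.

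Peak 20, at nucleotides 1804 to 1839, was the most-read Btg2 peak, with 1747 scaled wild-type and 1781 knockout reads. It held the miR-17 site printed above and a 6-nt match to the miR-101 seed 9 nt from its middle. It ranked 6 of all 14634 peaks, and first of the 543 peaks of the table with a miR-17 family site of 7 or 8 nt. The genotypes were nearly equal there (log2 ratio of wild type over knockout -0.03, p = 0.379 in the authors' deposited table).

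Peak 15, at nucleotides 1326 to 1361, held 993 scaled wild-type and 1573 knockout reads. Its miR-25/92 8mer lay 0 nt from the middle of the peak, and it ranked 3 of 406 peaks with a site of that family. It had the largest gap in reads between the genotypes of any Btg2 peak, and it took 17.3% of the wild-type and 22.2% of the knockout reads of the gene. Its log2 ratio was -0.66 in the authors' deposited table, where its p of 0.0301 was the smallest of the Btg2 peaks. That p did not survive adjustment over all peaks (Benjamini-Hochberg adjusted p = 0.999). Among the 83 peaks with a miR-25/92 site and 100 or more scaled reads, ratios had a median of -0.05 (quartiles -0.31 and 0.41), and 6 had a lower ratio than peak 15.

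Peak 10, at nucleotides 774 to 802, held 588 scaled wild-type and 632 knockout reads, the third most of the gene. It had no site of 7 or 8 nt for the 30 families searched, but a 6-nt match to the miR-25/92 seed 3.5 nt from its middle. Peak 9 just before it held 426 and 545 scaled reads, and peak 11 after it held 246 and 275. Both held a miR-15/16 site, the seed family that includes miR-16, a known brake on lymphocyte proliferation. They ranked 5 and 16 of 670 peaks with a site of that family.

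The end of the 3' UTR held a second dense stretch. Peak 21, with the miR-21 site, had 524 scaled wild-type and 528 knockout reads, the closest match of the genotypes in any Btg2 peak (log2 ratio -0.01 in the authors' deposited table). miR-21 is a microRNA induced in activated T cells, and Btg2 is a target reported for it. Peak 21 ranked 3 of 234 peaks with a miR-21 site. Peak 22 followed with 349 and 404 scaled reads and held only a 6-nt match, to miR-142-5p, a microRNA of blood cells. Peak 23, the last, held 64.8 and 96.3 scaled reads and an 8mer for the miR-221 family.

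Peak 3, at nucleotides 245 to 282, was the most-read peak near the start of the 3' UTR. It held 337 scaled wild-type and 642 knockout reads (log2 ratio -0.93, p = 0.128 in the authors' deposited table), and ranked 2 of 165 peaks with a miR-24 site. Matches of 6 nt to the seeds of miR-27 and miR-342 overlap that site.

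The other 4 of the 13 well-read peaks were smaller. Peak 1, which starts 11 nt into the 3' UTR, held 78.5 scaled wild-type and 135 knockout reads, with sites for let-7 and miR-146. Peak 5 held 42.2 and 91.5, with a miR-125 site. Peak 17 held 71.8 and 94.8, with a miR-29 site. Peak 19 held 122 and 115, was the only one of the 13 with more reads in wild type, and was the only one of the 13 with no match of 6 nt or more to any family searched.

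The remaining 10 peaks held 1.49 to 71.4 scaled reads each in both genotypes together. The knockout value was the higher in 6 of these and the wild-type value in 4. Peak 8 had the lowest log2 ratio of the gene, -2.46 in the authors' deposited table, from 0.822 scaled wild-type and 9.03 knockout reads. Peak 18 had the highest, 3.77, from 12.6 scaled wild-type reads against a knockout value listed at 0, as it was for peak 16. The ratios of such low peaks turn on few reads.

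No Btg2 peak was called different between the genotypes. With Benjamini-Hochberg adjustment of the authors' deposited p-values across the whole table, 0 of 23 Btg2 peaks passed 0.05, where 0.601% of all peaks did (0.574% lower and 0.0273% higher in the knockout). Given a share of 0.601%, 23 peaks are too few to read anything from this count. At an unadjusted p below 0.05 there was 1 of 23, peak 15, against 4.20% of all peaks. Peak 15 had more knockout reads, as did 1.48% of all peaks at that limit. The deposited p-values did not simply follow reads and ratio: peak 20 had p = 0.379 at a log2 ratio of -0.03 and peak 22 had p = 0.869 at -0.21. The authors' test is not named in the sources used here, and the labels call the libraries biological replicates without naming mice or cultures.

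**Figure D2:**
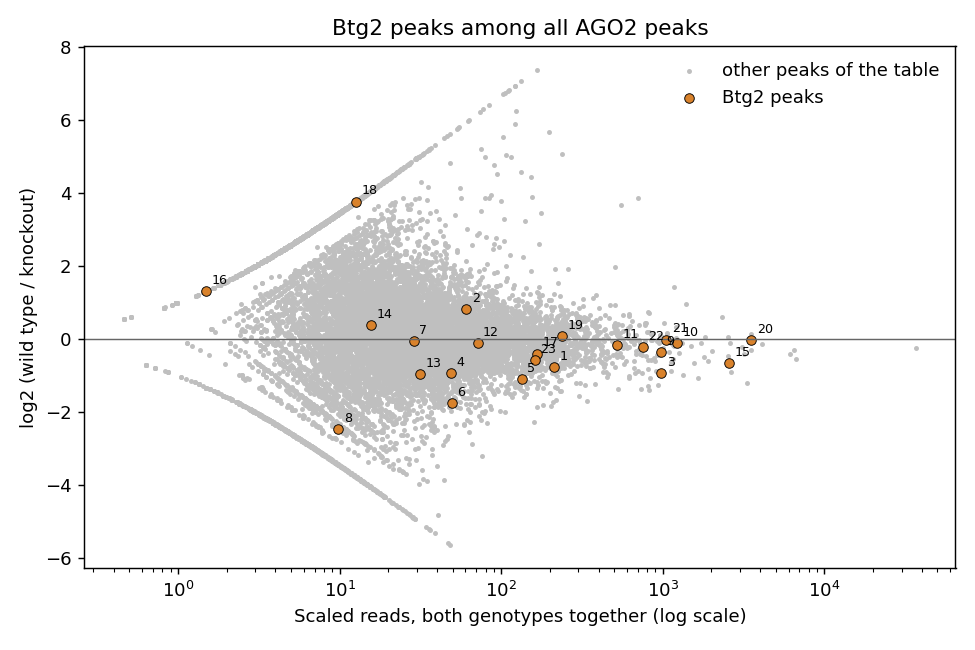
Log2 ratio of wild type over knockout (vertical axis) against scaled reads of both genotypes together (horizontal axis, log scale) for each peak of the table with reads, Btg2 peaks in orange with their numbers, other peaks in grey. The 13 Btg2 peaks with at least 100 reads lie between -1.10 and 0.09, and 12 of them lie below 0.

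Most Btg2 peaks were listed with more reads in the knockout, without passing the test. The log2 ratio was below 0 for 18 of 23 peaks, where 43.3% of all peaks were below 0. For the 13 with at least 100 scaled reads it was 12, where 57.1% of the 1403 peaks of that size were below 0. The median log2 ratio was -0.21 over the 23 peaks and 0.20 over all peaks. It was -0.36 over the 13 and -0.10 over all peaks with at least 100 scaled reads. Peaks of 1 gene share their mRNA and are not independent, so these counts carry no test.

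The summed reads of the gene gave a log2 ratio of -0.31, which is 1.24-fold more in the knockout. Over the 117 genes with at least 1000 scaled reads the median of this ratio was -0.06 (quartiles -0.25 and 0.09), and 25 of them had a lower ratio than Btg2. The value of Btg2 thus lay just below the lower quartile of well-read genes.

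The ratio between the genotypes was uneven along the 3' UTR. Cut into stretches of equal length, nucleotides 1 to 733 held 540 scaled wild-type and 986 knockout reads (log2 ratio -0.87). Nucleotides 734 to 1466 held 2306 and 3090 (log2 ratio -0.42). Nucleotides 1467 to 2199 held 2894 and 3018 (log2 ratio -0.06). The last stretch therefore made up 50.4% of the wild-type and 42.5% of the knockout reads of Btg2, and the first made up 9.40% and 13.9%. In the first stretch 7 of 8 peaks had a log2 ratio below 0, in the middle 6 of 7 and in the last 5 of 8. Single peaks weigh heavily in these sums. Peak 3 held 337 scaled wild-type and 642 knockout reads of the first stretch, and peak 15 held 993 and 1573 of the middle. Ratios of single peaks overlapped between stretches: -2.46 to 0.82 in the first, -0.96 to 0.38 in the middle and -0.56 to 3.77 in the last. Their medians were -0.93, -0.16 and -0.02. This division was chosen after the values had been seen, and the difference between the stretches was not tested.

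**Figure D3:**
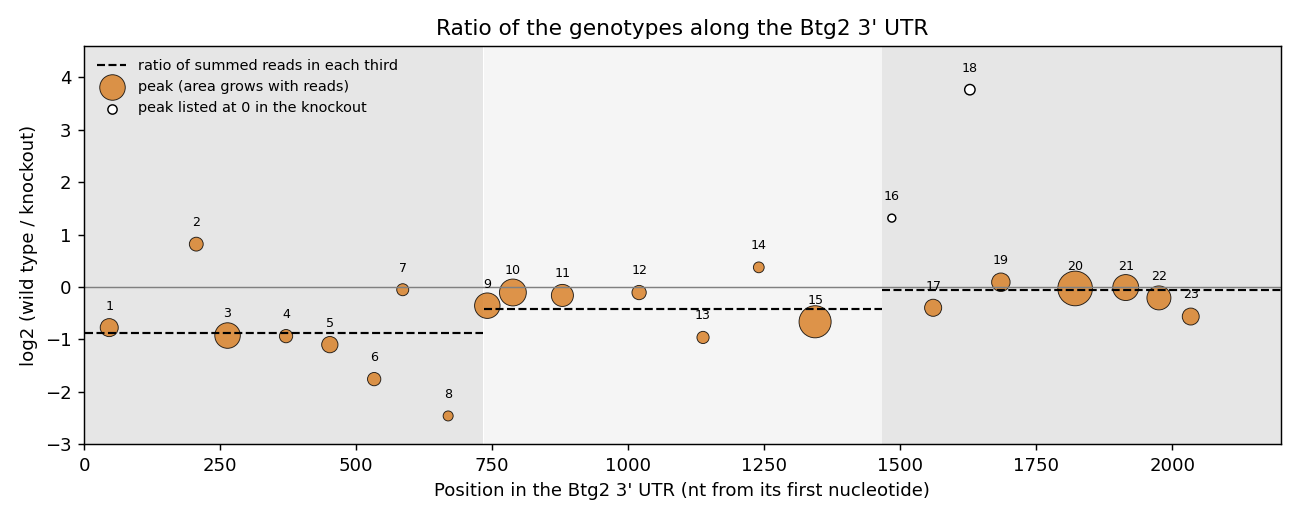
Log2 ratio of wild type over knockout (vertical axis) of each Btg2 peak against its position in the 3' UTR in nt (horizontal axis), with circles that grow with the reads, open for peaks listed at 0 in the knockout. Shading marks the stretches of equal length, whose summed reads gave -0.87, -0.42 and -0.06 (dashed lines).

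No miR-155 site was found in the Btg2 peak sequences, which were searched with their 6-nt flanks; the rest of the 3' UTR was not searched. None of the 23 peaks contained an 8mer, 7mer or 6mer for miR-155, an offset 6mer (pairing with bases 3 to 8) or a 6mer-A1 (bases 2 to 6 and the A); 5.64% of all peaks contained at least 1 of these. A 7-nt stretch with 1 mismatch to the miR-155 seed match occurred in peaks 14 and 22, 8.70% of the Btg2 peaks, against 6.97% of all peaks. Peak 14 held 9.02 scaled wild-type and 6.72 knockout reads.

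Sites of other families were common. Of the 23 Btg2 peaks 13 held a site of 7 or 8 nt, 18 sites in all from 13 of the 30 families searched, namely 5 8mers, 5 7mer-m8 and 8 7mer-A1. The share, 56.5%, compares with 44.5% of all peaks. Among peaks with at least 100 scaled reads it was 10 of 13 in Btg2 (76.9%) and 61.0% over all such peaks. The 13 Btg2 peaks with a site carried 81.3% of the reads of the gene, and site-bearing peaks carried 58.1% of the reads of the whole table. With 6-nt matches counted, 6 Btg2 peaks still had none.

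Families with more than 1 site in Btg2 were miR-15/16 (peaks 9 and 11), miR-25/92 (peaks 12 and 15), miR-29 (peaks 14 and 17), miR-146 (peaks 1 and 12) and miR-128 (peaks 4 and 12). The sites of miR-25/92 differed widely in reads, since the 8mer in peak 12 lay in a peak of 34.4 scaled wild-type and 37.1 knockout reads. The miR-25/92 8mer in peak 12 lay 22.5 nt from the middle of its peak, and that in peak 15 lay at the middle. Peak 4 held an 8mer for miR-27 with only 16.6 scaled wild-type and 32.7 knockout reads. Of the 5 Btg2 8mers, those in peaks 4 and 12 thus lay in peaks with under 100 scaled reads.

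Sites in the well-read Btg2 peaks sat close to the middle of the peak. All 6 sites in Btg2 peaks with at least 500 scaled reads lay within 6 nt of the middle, and of the 122 sites in all peaks of that size 50.0% did. In peaks with at least 100 scaled reads, 8 of the 11 Btg2 sites did, against 57.0% of 1181 sites. In Btg2 peaks under 100 scaled reads, 2 of 7 sites did, against 44.6% of 7437 sites. Peak length limits how far a site can lie from the middle. Peaks 12 and 14, which held most of these 7 sites, were 83 and 99 nt long. The 6 sites in peaks with at least 500 scaled reads lay in peaks of 33 to 40 nt. The Btg2 sites are few and were not tested against the rest, and peak length was not taken into account.

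**Figure D4:**
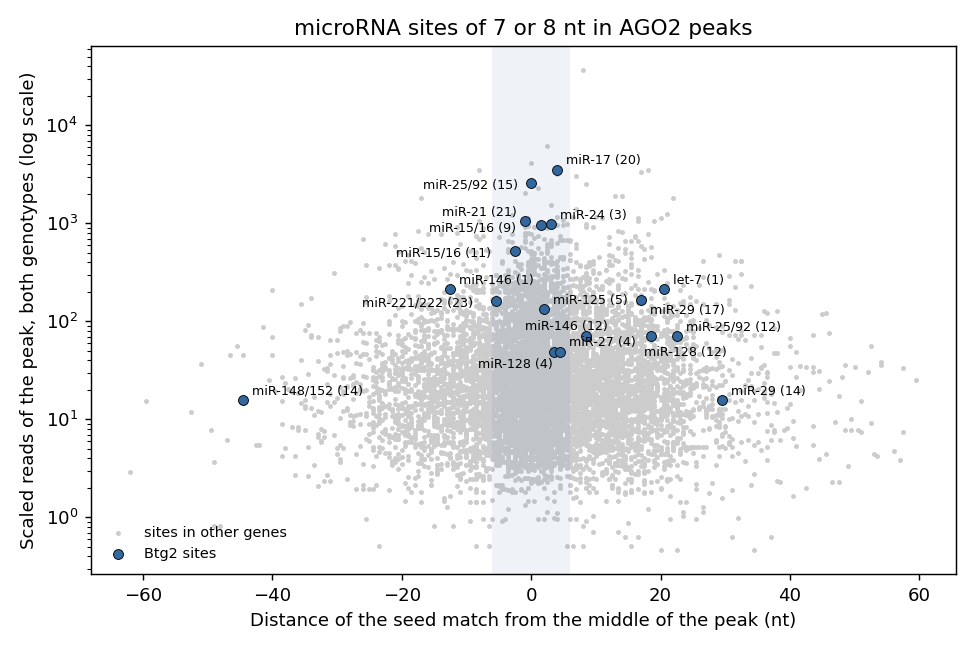
Scaled reads of the peak in both genotypes (vertical axis, log scale) against the distance in nt of the seed match from the middle of the peak (horizontal axis), for each site of 7 or 8 nt, Btg2 sites in blue with family and peak number, others in grey. The 6 Btg2 sites in peaks with at least 500 reads lie inside the shaded band of 6 nt on either side.

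Base composition differed between Btg2 peaks. The 5 peaks with the lowest GC content, 15, 20, 21, 22 and 23, had 30.8 to 35.4% and held 62.8% of the Btg2 reads. The other 18 peaks ranged from 39.0 to 67.4% GC, and these include peaks 17 (45.2%) and 19 (52.7%) in the last stretch of the 3' UTR. The median over Btg2 peaks was 48.9%, above the 36.8% over all peaks of the table.

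The genes with read levels most like Btg2, by the distance over log2(1 + summed reads) in the 2 genotypes, were Hif1a (0.72), Dusp2 (0.92), C130039O16Rik (1.22), Cd69 (1.30) and Cdkn1b (1.37). Per nucleotide of peak, Dusp2, a phosphatase of MAP kinases, held 14.9 scaled wild-type and 18.9 knockout reads, and Cd69, an activation marker, held 6.60 and 6.92. Hif1a, whose protein is a transcription factor stabilised at low oxygen, had 4.92 and 5.45, and Cdkn1b, an inhibitor of cyclin-dependent kinases, held 3.31 and 3.42. In each of these 5 genes a larger share of the reads lay in a single peak than in Btg2, from 45.2% in Cd69 to 93.4% in C130039O16Rik. Of the 24 Hif1a peaks 6 held a site of 7 or 8 nt, and of the 20 Cdkn1b peaks 6 did, where Btg2 had 13 of 23.

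The relatives of Btg2 had far fewer AGO2 reads per nucleotide of peak. Btg2 was chosen by its reads and they were not, so this gap follows in part from the choice. Tob2 held 1.83 scaled wild-type and 1.27 knockout reads per nt over 6 peaks, Tob1 held 0.323 and 0.366 over 4, and Btg1 held 0.288 and 0.207 over 3. Btg3 had 1 peak with 8.13 scaled wild-type reads and a knockout value listed at 0, and no peak is listed for Btg4. Of the 14 peaks of these relatives 0 were called, where 0.601% of all peaks were, so the count says little. A knockout value of 0 was listed for 6 of the 14, and for 16.6% of all peaks. The median log2 ratio was 0.77, against 0.20 over all peaks.

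The CCR4-NOT deadenylase and its poly(A) partners, through which BTG proteins act, had peaks in 9 of 16 genes. Of their 44 peaks 0 were called, where 0.601% of all peaks were, too few to read anything from the count. Their median log2 ratio was 0.29, against 0.20 over all peaks. Per nucleotide of peak the catalytic subunit gene Cnot6l held 0.961 scaled wild-type and 0.916 knockout reads. Cnot7, the catalytic subunit that BTG proteins bind directly, held 0.364 and 0.350. The ubiquitin ligase subunit gene Cnot4 held 1.56 and 1.09, and Cnot6 held 0.206 and 0.167.

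Other p53 target genes had peaks in 10 of 16 cases. Of 84 peaks 0 were called, where 0.601% of all peaks were, so this count too says little. Over peaks the median log2 ratio was 0.62, but 43 of the 84 peaks belong to Trp53inp1 and 13 were listed at 0 in the knockout. Over genes, the summed reads gave a log2 ratio below 0 for 7 of 10, so the peaks and the genes gave no common direction. For comparison, 69 of the 117 genes with at least 1000 scaled reads were below 0. Of the 10 p53 target genes only Trp53inp1 had that many reads, so the 117 are not a like set. Some of the 7 had few reads, such as Gadd45a with 0.976 scaled wild-type and 2.64 knockout reads. Trp53inp1, a stress-response gene, held 0.944 scaled wild-type and 0.581 knockout reads per nt. The BH3-only gene Pmaip1 held 0.536 and 0.588, the cell cycle inhibitor gene Cdkn1a held 0.401 and 0.529, and Zmat3, an RNA-binding protein gene, held 0.661 and 0.912.

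Of 15 genes that support T cell quiescence 13 had peaks, and 1 of their 178 peaks was called, or 0.562%, near the 0.601% of all peaks. It was peak 2 of Peli1, a ubiquitin ligase gene, which held 147 scaled wild-type and 23.1 knockout reads with a miR-155 7mer-A1 (adjusted p = 0.0161 by Benjamini-Hochberg over the authors' deposited p-values). The most-read genes of this group after Cdkn1b were Bach2, a transcriptional repressor (1.62 and 1.79 reads per nt), Cblb, a ubiquitin ligase (2.23 and 2.66), and Ikzf1, the gene of Ikaros (0.713 and 0.789). The median log2 ratio of the group was 0.17.

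Of 22 immediate early genes and genes of mRNAs with AU-rich elements 20 had peaks, and 1 of 124 peaks was called, or 0.806%, near the 0.601% of all peaks. This was peak 7 of Fosl2, an AP-1 subunit gene, with 166 scaled wild-type reads, a knockout value listed at 0, and a miR-155 8mer (adjusted p = 1.35e-19 by the same adjustment). After Dusp2, the most-read were Zfp36l1, Fosl2 and Zfp36. Zfp36l1 and Zfp36 encode proteins that bind AU-rich elements. The median log2 ratio of the group was -0.09.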

How the data were processed

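AGO2 HITS-CLIP reads of 24 libraries, 12 per genotype, were aligned with Bowtie 0.12.7 to mm9, per the submitters' processing notes. Not given in the sources used here were the methods for peak calling, scaling, duplicate removal and the test. Per the file headers, the authors' deposited log2 values are reads per genotype and their ratio, and a deposited p-value scores differential binding. The pseudocount of 1 was read from the values. The ratio column and the difference between the genotype columns were equal within 6e-05.

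Scaled reads were computed as 2 to the power of the log2 value, less 1. Deposited p-values were adjusted by Benjamini-Hochberg over all peaks (threshold 0.05). Sites were searched in the deposited sequence, which extends 6 nt beyond each peak, for 30 families whose seeds were read from RefSeq; miR-150 was not searched. Peak sequences were matched exactly to GENCODE M21 transcripts on GRCm38, so positions are not on mm9. The adjustment and the site search were tested on simulated data. Python 3.11.15, NumPy 2.4.6 and pandas 2.3.3 were used.

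Btg2 peaks of at least 100 scaled reads and those with extreme p or ratio were named, with the 5 nearest genes and, per list, 4 most-read genes and those with called peaks. The gene and the lists were chosen with earlier results of these data known. The alternatives were other thresholds, adjustments, centring, pseudocounts, read minimums and site definitions. Libraries were left out of no fit, since the table pools them.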

Additional observations from a re-analysis of the deposited data

How the results depend on the processing

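No Btg2 peak was called under any of the 5 alternatives tried (adjusted p thresholds of 0.01 and 0.1, adjustment over peaks with at least 10 scaled reads or with reads in both genotypes, and Bonferroni). The smallest adjusted p among them was 0.704. The other thresholds and Bonferroni could not have called a peak, since the smallest Benjamini-Hochberg adjusted p over all peaks was 0.999 for Btg2. The log2 ratio of the summed reads, -0.31, was -0.41 without the most-read peak and -0.30 over peaks of 10 scaled reads or more. It was -0.50 when centred on the median of all peaks (0.20). Peaks with at least 100 scaled reads had a median of -0.10, and centring on that value was not tried. Having the opposite sign, it would move the ratio the other way. For the Btg2 peaks the median, -0.21, was -0.40 when centred on the median of all peaks. It was -0.36 without a pseudocount over the 21 peaks with reads in both genotypes. With 8-nt matches only, 5 Btg2 peaks held a site in place of 13 (15.1% of all peaks). The 1 called peak of the quiescence genes fell to 0 at a threshold of 0.01, and that of the immediate early genes to 0 when peaks listed at 0 in a genotype were left out, which removes the Fosl2 peak itself. No paired analysis was possible because the table has 1 pooled value per genotype, and for the same reason no replicate could be left out. The depth of the libraries is unknown, so no limit from it is given.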

Other observations

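A miR-25/92 8mer, as in Btg2, was also present in a peak of each Tob gene, but the sites were not aligned between genes. In Tob2, peak 6 held 170 scaled wild-type and 133 knockout reads with a miR-25/92 8mer 2 nt from its middle, and was the most-read peak of that gene. In Tob1, peak 4 held 92.9 scaled reads over both genotypes with a miR-25/92 8mer 1 nt from its middle, and was likewise the most-read peak of its gene. That Tob1 peak also held a miR-26 8mer 5 nt from its middle, so its reads cannot be assigned to either family. A miR-15/16 8mer was present in peak 3 of Btg1, which had only 1.49 scaled wild-type reads and a knockout value listed at 0. A miR-17 8mer was present in the only Btg3 peak. These genes were looked at after the Btg2 sites were known.

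The pentamer ATTTA, the core of AU-rich elements, was searched on the transcript strand in the peak sequences with their 6-nt flanks. It was present in 3 of 23 Btg2 sequences (peaks 10, 15 and 17) and in 11.6% of all sequences. The copy of peak 10 lay wholly in the flank before the peak. The sequence of peak 15 held 2 copies, 1 upstream of its miR-25/92 site that starts in the flank, and 1 that begins with the last A of that site. The polyadenylation signal AATAAA, searched in the same way, was present in the sequence of peak 23 alone, or 4.35% of Btg2 sequences, and in 9.57% of all sequences. It lay in the flank before peak 23, with only its last base in the peak. Peak 23 ends 154 nt before the annotated end of the 3' UTR.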
